A study of Homo sapiens with 12 samples.

Results

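Ribosome biogenesis genes encode the nucleolar machinery that makes ribosomes, and 60 of them were followed here over 12 expression arrays of MDA-MB-231 cells, a human triple-negative breast cancer line. The 60 genes were named as a list and found on the arrays by gene symbol, in current or older form. The list was drawn up from earlier results on these arrays, in which ribosome biogenesis genes were lower after some of the siRNA transfections. The members were therefore selected on the same measured differences that are given below, and those differences are a description of the members and no test of the list. A kept probe was found for 54 of the 60. WDR43, DDX18, EBNA1BP2 and GNL3 had no probe of that name in the table used here, and the probes of WDR3 and NPM1 were not detected on enough arrays to be kept. The 54 tested members stood among 12048 tested genes.

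All cells received 100 nM siRNA with Oligofectamine. The labels give 9 arrays to an ARF1 SMARTpool (a mixture of siRNAs against ARF1, a small GTPase of the Golgi) in source-name sets ARF-1, ARF-2 and ARF-4 of 3 arrays each, and 3 arrays to a scramble, or nonsilencing, siRNA. What distinguishes the sets is not given in the labels, nor whether arrays of a set came from separate cultures, so a p-value here covers no more than the variation among the deposited samples, and that variation may be technical. ARF1 itself was not lower past the threshold on any of its 3 probes in any set. Its brightest probe read 11.64, 11.79 and 11.72 on the arrays labelled ARF-1, 11.87, 11.87 and 11.83 on those labelled ARF-2, 11.73, 11.78 and 11.78 on those labelled ARF-4, and 11.59, 11.71 and 11.63 on the scramble arrays. No lower ARF1 RNA was therefore seen where the labels name ARF1 siRNA, and every difference below is one between arrays so labelled. Mean raw signal ranged from 303.4 to 518.3 and the share of detected probes from 39.14% to 42.81% over the 12 arrays. The mesenchymal markers VIM, CD44, MSN, CAV1 and ANXA1 were detected on all 12 arrays, and ESR1, PGR, CDH1, PTPRC, CD3E, VWF, CDH5 and KDR on 0. Of the 5 mesenchymal markers, CD44, MSN and CAV1 were called lower in ARF-1 (-0.32, -0.33 and -0.52), MSN and CAV1 in ARF-2 (-0.40 and -0.51) and 0 in ARF-4, and the median of the 5 was -0.317, -0.224 and -0.273 in the sets in that order. CD14 and PECAM1 were detected on all 12 and differed between sets: CD14 by 0.54, 1.01 and 0.00, and PECAM1 by 0.38, 0.70 and -0.89 log2 from scramble, in the order of the sets. The part of these markers in the results below was not tested.

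A ribosome starts in the nucleolus, where RNA polymerase I transcribes a long precursor of ribosomal RNA. Small nucleolar ribonucleoproteins (snoRNPs) modify that precursor, the small subunit processome folds and cuts its first part, and separate sets of assembly factors build the small (40S) and large (60S) subunits. The process takes a large share of the energy of a growing cell, and the transcription factor MYC is a known activator of many of its genes. Nucleoli are often enlarged in cancer cells.

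The bases upstream of the start site are shown for 3 members that were lower in both ARF-1 and ARF-2, and for 2 others whose upstream bases hold the motif. The sequences are from RefSeq on GRCh38.p14, 250 bases before the annotated start, 5′ to 3′, and capitals mark CACGTG, the E-box to which MYC and its partner MAX are known to bind. GRWD1, NOP14 and NOP56 were among the members furthest below scramble on the arrays labelled ARF-1. NOP10 was called in neither ARF-1 nor ARF-2, and UTP20 was called lower in ARF-2 and ARF-4 but not in ARF-1. NOP14 holds the motif in the 50 bases past its start, which are not shown. Also not shown are IMP4, lower in both sets, UTP18, called lower in ARF-2, and EBNA1BP2, which had no probe. Their upstream bases hold the motif too.
GRWD1, chr19:48445733-48445982, plus strand: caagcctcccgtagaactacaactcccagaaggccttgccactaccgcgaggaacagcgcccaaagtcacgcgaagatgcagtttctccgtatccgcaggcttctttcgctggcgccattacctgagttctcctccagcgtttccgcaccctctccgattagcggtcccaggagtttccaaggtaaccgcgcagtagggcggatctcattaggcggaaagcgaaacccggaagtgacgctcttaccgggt
NOP14, chr4:2963407-2963656, minus strand: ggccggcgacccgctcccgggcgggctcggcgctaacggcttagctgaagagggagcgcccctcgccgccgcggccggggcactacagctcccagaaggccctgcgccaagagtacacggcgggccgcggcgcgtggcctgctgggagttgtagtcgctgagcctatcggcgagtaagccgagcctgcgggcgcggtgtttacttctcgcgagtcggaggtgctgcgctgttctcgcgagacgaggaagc
NOP56, chr20:2652382-2652631, plus strand: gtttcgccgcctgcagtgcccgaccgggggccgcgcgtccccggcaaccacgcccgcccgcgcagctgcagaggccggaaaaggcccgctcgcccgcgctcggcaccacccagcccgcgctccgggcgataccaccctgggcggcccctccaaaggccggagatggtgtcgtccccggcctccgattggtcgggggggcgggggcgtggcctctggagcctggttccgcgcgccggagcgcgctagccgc
NOP10, chr15:34343137-34343386, minus strand: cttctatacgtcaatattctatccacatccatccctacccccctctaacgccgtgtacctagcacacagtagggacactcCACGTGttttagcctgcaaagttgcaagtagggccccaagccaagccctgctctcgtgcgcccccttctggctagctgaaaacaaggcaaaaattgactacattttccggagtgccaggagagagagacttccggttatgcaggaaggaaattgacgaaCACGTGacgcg
UTP20, chr12:101279855-101280104, plus strand: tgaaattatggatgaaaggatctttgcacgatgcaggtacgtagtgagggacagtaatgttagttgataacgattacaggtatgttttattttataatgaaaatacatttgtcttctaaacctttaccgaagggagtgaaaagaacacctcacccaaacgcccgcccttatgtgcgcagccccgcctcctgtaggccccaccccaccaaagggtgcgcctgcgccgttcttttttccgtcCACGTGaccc
CACGTG reads the same on both strands, so 1 search covers both. Promoters were in the table for 51 of the 60 members. In the 250 bases upstream, 5 of the 51 members (9.8%) held it, against 1772 of 27305 promoters in the table (6.5%). A wider window was counted after that result had been seen. With the 50 bases past the start included, a window of 300 bases, 17 of 51 members (33.3%) held it, against 2030 of 27305 promoters (7.4%). The answer thus depended on the window. In the wider window the motif was present in 8 of 25 members lower in both ARF-1 and ARF-2 (32.0%) and in 4 of 17 called in neither (23.5%). In the narrower window these shares were 1 of 25 (4.0%) and 1 of 17 (5.9%). Among other ribosome biogenesis genes, 16 of 91 (17.6%) held it in 250 bases and 26 of 91 (28.6%) in 300. A match is a run of letters and was not measured as a bound site.

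Most members were lower on the arrays labelled ARF-1 and ARF-2 than on the scramble arrays, and close to scramble on those labelled ARF-4. Values are normalized log2 signals, differences are log2 with their standard error (SE) from limma, and a gene was called at an adjusted p below 0.05 over all kept probes. In ARF-1, 31 of 54 tested members were called lower, where 15.3% of all tested genes were, and 0 were called higher, where 15.2% were. In ARF-2, 35 of 54 were called lower (14.1% of all genes) and 0 higher (14.7%). In ARF-4, 4 were called lower (4.8% of all genes) and 1 higher (4.99%). The median member differed from scramble by -0.445 in ARF-1, -0.54 in ARF-2 and -0.004 in ARF-4, beside medians over all genes of -0.003, 0 and -0.001. At an unadjusted p below 0.05 limma placed 0 members higher in ARF-1 (21% of all genes) and 0 in ARF-2 (20.7%). In ARF-4 it placed 7 lower (13%) and 4 higher (13.4%). Since the list was drawn up from these contrasts, nothing is read from the counts about the list. In bulk RNA, fewer cells expressing a gene and less of its RNA per cell cannot be told apart.

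Array by array, the members' median deviation from the scramble mean was -0.497, -0.545 and -0.488 on the arrays labelled ARF-1, -0.533, -0.53 and -0.485 on those labelled ARF-2, 0.028, -0.028 and -0.059 on those labelled ARF-4, and -0.002, 0.007 and 0.007 on the scramble arrays. The 6 ARF-1 and ARF-2 arrays thus did not overlap the other 6. All 31 members called lower in ARF-1 were called lower in ARF-2, and 4 more (UTP15, UTP18, UTP20 and PES1) were called lower in ARF-2 alone of the pair. Both comparisons use the same scramble arrays, and the matching overlap over all genes was not counted. Nothing is therefore read from this overlap about the members. The UTP15 call was lost without ARF-2 replicate 1 or 2 or any 1 scramble array, with no probe filter and with the replicate number as a block, and the UTP18 call without ARF-2 replicate 1 or 2 or scramble replicate 2 or 3. In ARF-1, UTP15 was called in 13 of 24 alternative fits, PES1 in 10 of 24, UTP18 in 6 of 24 and UTP20 in 2 of 23. Compared directly, ARF-2 minus ARF-1 gave 0 called members in limma, 0 lower (0.0166% of all genes) and 0 higher (0.0581%), with 1 lower (3.93%) and 1 higher (4.94%) at an unadjusted p below 0.05. The remaining 19 tested members were called in neither set. These were POLR1A, POLR1B, POLR1E, RRN3, FBL, NHP2, NOP10, HEATR1, WDR75, PWP2, DDX47, DDX10, NOB1, WDR12, NOC3L, WDR74, RPF1, RPF2 and GNL3L.

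**Figure D1:**
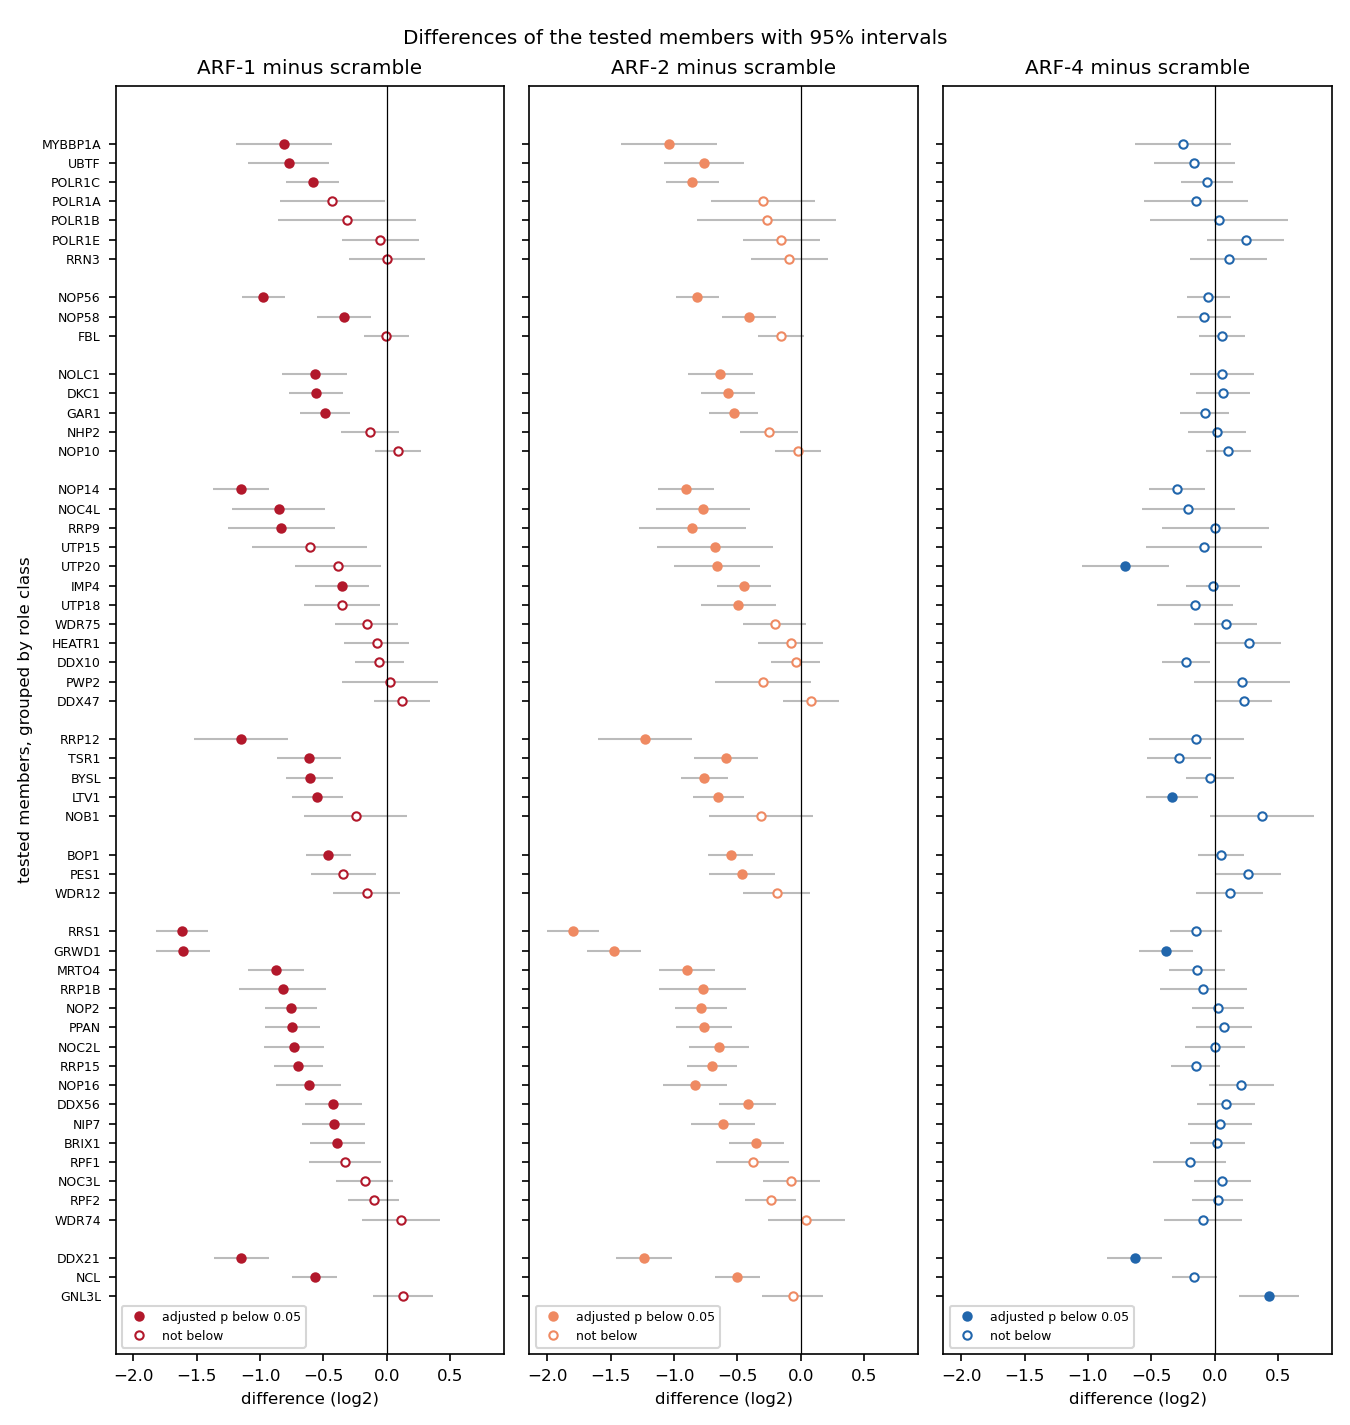
Difference from scramble (log2, horizontal axis) of the 54 tested members, grouped by role class, for the arrays labelled ARF-1, ARF-2 and ARF-4; lines are 95% intervals, and filled points have an adjusted p below 0.05. In ARF-1 31 and in ARF-2 35 filled points lie below 0, and in ARF-4 there are 4 below and 1 above.

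RNA polymerase I and its cofactors make the precursor. Of 7 members in this class, 3 were called lower in ARF-1 (15.3% of all genes) and the same number in ARF-2 (14.1%), none in ARF-4 (4.8%). POLR1C, a subunit shared by RNA polymerases I and III, read 9.38, 9.47 and 9.57 on the arrays labelled ARF-1, 9.24, 9.27 and 9.09 on those labelled ARF-2, 9.90, 10.04 and 10.06 on those labelled ARF-4, and 10.07, 10.14 and 9.97 on the scramble arrays. The ARF-1 and ARF-2 arrays lay below all others for it. Its differences from scramble were -0.59 ± 0.10 for ARF-1, -0.86 ± 0.10 for ARF-2 and -0.06 ± 0.10 for ARF-4. UBTF, the factor that opens ribosomal DNA for transcription, read 5.84, 6.13 and 6.25 on the arrays labelled ARF-1, 6.09, 6.11 and 6.08 on those labelled ARF-2, 6.97, 6.74 and 6.37 on those labelled ARF-4, and 6.76, 6.94 and 6.86 on the scramble arrays. Again the ARF-1 and ARF-2 arrays lay below the scramble arrays, at -0.78 ± 0.15 for ARF-1, -0.76 ± 0.15 for ARF-2 and -0.16 ± 0.15 for ARF-4. Its other kept probes were not called, at -0.43 and -0.27 in ARF-1. MYBBP1A, a nucleolar protein that binds MYB and acts in ribosomal RNA synthesis, read 5.46, 5.54 and 6.03 on the arrays labelled ARF-1, 5.20, 5.80 and 5.33 on those labelled ARF-2, 6.05, 6.33 and 6.33 on those labelled ARF-4, and 6.39, 6.53 and 6.54 on the scramble arrays. All 9 arrays of the 3 sets lay below the scramble arrays, but the ARF-4 difference was not called (-0.81 ± 0.17 for ARF-1, -1.04 ± 0.17 for ARF-2 and -0.25 ± 0.17 for ARF-4). MYBBP1A is dim, and without background correction its differences were -0.35 in ARF-1 and -0.43 in ARF-2. The catalytic subunits POLR1A and POLR1B, with -0.43 and -0.31 in ARF-1, were not called on the probes used, but a second, dimmer POLR1B probe was called lower at -0.59 in ARF-1 and at -0.67 for ARF-2. The initiation factor RRN3 differed by 0.00 ± 0.14 in ARF-1.

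Box C/D snoRNPs guide 2′-O-methylation of ribosomal RNA. NOP56, a core protein of these particles, read 11.09, 11.11 and 11.06 on the arrays labelled ARF-1, 11.19, 11.25 and 11.30 on those labelled ARF-2, 11.997, 12.06 and 11.98 on those labelled ARF-4, and 12.03, 12.05 and 12.10 on the scramble arrays. Neither ARF-1 nor ARF-2 overlapped the other 6 arrays, and the differences were -0.97 ± 0.08 for ARF-1, -0.82 ± 0.08 for ARF-2 and -0.05 ± 0.08 for ARF-4; its 3 kept probes were each called lower in both sets. NOP58, its partner, read 10.40, 10.34 and 10.39 on the arrays labelled ARF-1, 10.46, 10.23 and 10.24 on those labelled ARF-2, 10.68, 10.62 and 10.61 on those labelled ARF-4, and 10.57, 10.76 and 10.83 on the scramble arrays. Its differences were -0.34 ± 0.10 for ARF-1, -0.41 ± 0.10 for ARF-2 and -0.08 ± 0.10 for ARF-4, and its ARF-1 call was lost without ARF-1 replicate 1, 2 or 3 or scramble replicate 2 or 3, at values between -0.28 and -0.35. FBL, the methyltransferase of the same particle, read 11.31, 11.30 and 11.40 on the arrays labelled ARF-1, 11.20, 11.27 and 11.08 on those labelled ARF-2, 11.43, 11.36 and 11.40 on those labelled ARF-4, and 11.32, 11.34 and 11.37 on the scramble arrays. Its arrays overlapped between ARF-1 and scramble, and no set was called (-0.00 ± 0.08 for ARF-1, -0.16 ± 0.08 for ARF-2 and 0.06 ± 0.08 for ARF-4). FBL was thus uncalled on the arrays where NOP56 fell by 0.97 on the log2 scale, and the difference between the genes was not tested.

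Box H/ACA snoRNPs convert uridine to pseudouridine. DKC1, the pseudouridine synthase, which is mutated in dyskeratosis congenita, read 10.87, 10.84 and 10.93 on the arrays labelled ARF-1, 10.71, 10.89 and 10.98 on those labelled ARF-2, 11.63, 11.38 and 11.49 on those labelled ARF-4, and 11.42, 11.42 and 11.46 on the scramble arrays. NOLC1, a chaperone that shuttles snoRNPs through the nucleolus, read 8.17, 8.31 and 8.46 on the arrays labelled ARF-1, 8.16, 8.19 and 8.41 on those labelled ARF-2, 9.02, 8.80 and 9.01 on those labelled ARF-4, and 8.92, 8.73 and 9.002 on the scramble arrays. The 6 ARF-1 and ARF-2 arrays lay below the others for both genes, with -0.56 ± 0.10 and -0.57 ± 0.10 for DKC1, and -0.57 ± 0.12 and -0.63 ± 0.12 for NOLC1. GAR1, a core subunit, read 10.45, 10.60 and 10.48 on the arrays labelled ARF-1, 10.54, 10.43 and 10.44 on those labelled ARF-2, 11.03, 10.89 and 10.85 on those labelled ARF-4, and 10.93, 10.997 and 11.07 on the scramble arrays. It differed by -0.49 ± 0.09 for ARF-1, -0.53 ± 0.09 for ARF-2 and -0.08 ± 0.09 for ARF-4 on its brightest probe, but its 4 kept probes disagreed: 2 were called lower in ARF-1, 1 at -0.27 was not called, and the dimmest was called higher at 0.64. NHP2 and NOP10, the small subunits, were not called, at -0.13 and 0.09 in ARF-1. No member of the class was called in ARF-4 on the probe used. The dimmest GAR1 probe was called higher in ARF-4, at 0.62, and in ARF-2, at 0.44.

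**Figure D2:**
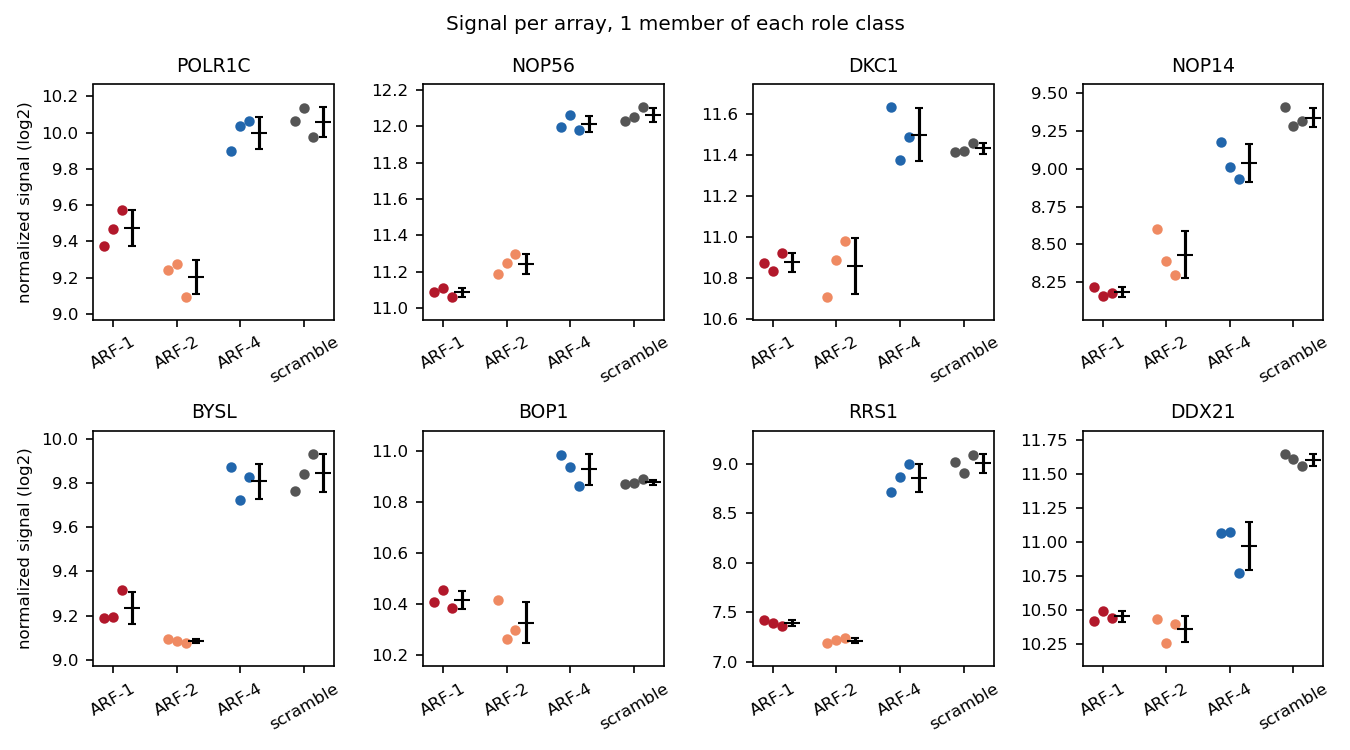
Normalized signal (log2, vertical axis) on each array for the member of each role class with the smallest F-test p, by set, with mean and SD beside the points (n = 3). ARF-1 and ARF-2 points lie below ARF-4 and scramble points in all 8 panels, and DDX21 and NOP14 also have their ARF-4 points below scramble. The 8 members were picked by that F-test on these same arrays, so nothing is read from their separation.

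The small subunit processome is the large particle that forms on the growing precursor. Of its 14 members 12 were tested, and 4 were called lower in ARF-1 (15.3% of all genes) and 7 in ARF-2 (14.1%). NOP14, a core scaffold, read 8.22, 8.16 and 8.18 on the arrays labelled ARF-1, 8.60, 8.39 and 8.30 on those labelled ARF-2, 9.18, 9.01 and 8.93 on those labelled ARF-4, and 9.41, 9.28 and 9.32 on the scramble arrays. Its ARF-1 and ARF-2 arrays lay lowest and its ARF-4 arrays between those and scramble, at -1.15 ± 0.10 for ARF-1, -0.91 ± 0.10 for ARF-2 and -0.30 ± 0.10 for ARF-4. A dimmer NOP14 probe went the other way without being called, at 0.41 in ARF-1, so NOP14 rests on 1 of its 2 probes. RRP9, which binds the U3 snoRNA, read 6.30, 5.96 and 5.74 on the arrays labelled ARF-1, 5.90, 6.09 and 5.95 on those labelled ARF-2, 6.32, 7.08 and 7.12 on those labelled ARF-4, and 6.83, 6.87 and 6.81 on the scramble arrays. NOC4L, a partner of NOP14, read 6.11, 6.14 and 5.85 on the arrays labelled ARF-1, 5.85, 5.99 and 6.52 on those labelled ARF-2, 6.80, 6.81 and 6.43 on those labelled ARF-4, and 6.80, 7.04 and 6.83 on the scramble arrays. Both fell in ARF-1 and ARF-2, with -0.83 ± 0.19 and -0.86 ± 0.19 for RRP9 and -0.85 ± 0.17 and -0.77 ± 0.17 for NOC4L, whose other kept probes were not called (-0.04 and -0.27 in ARF-1). IMP4, of the IMP3-IMP4-MPP10 complex, fell by 0.36 (ARF-1) and 0.45 (ARF-2) on the log2 scale, and its ARF-1 call was lost with median scaling and without ARF-1 replicate 1 or 3 or scramble replicate 2 or 3. UTP20 was not above background on any ARF-2 or ARF-4 array, and was at least 1.36-fold lower in ARF-2 and at least 1.41-fold lower in ARF-4 than in scramble. Its ARF-4 call was lost without ARF-4 replicate 2 or scramble replicate 1 or 3. HEATR1, WDR75, PWP2, DDX47 and DDX10 were not called from scramble in any set.

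Late small subunit factors carry the pre-40S particle from the nucleolus to the cytoplasm. RRP12, an export factor, read 7.44, 7.84 and 7.72 on the arrays labelled ARF-1, 7.82, 7.71 and 7.22 on those labelled ARF-2, 8.76, 8.54 and 8.72 on those labelled ARF-4, and 8.67, 8.68 and 9.10 on the scramble arrays. BYSL (bystin), which acts in 40S processing, read 9.19, 9.20 and 9.32 on the arrays labelled ARF-1, 9.10, 9.08 and 9.07 on those labelled ARF-2, 9.87, 9.72 and 9.83 on those labelled ARF-4, and 9.76, 9.84 and 9.93 on the scramble arrays. Both genes had all ARF-1 and ARF-2 arrays below the other 6, at -1.15 ± 0.17 for ARF-1, -1.23 ± 0.17 for ARF-2 and -0.14 ± 0.17 for ARF-4 for RRP12. The values for BYSL were -0.61 ± 0.09 for ARF-1, -0.76 ± 0.09 for ARF-2 and -0.04 ± 0.09 for ARF-4. LTV1, which must leave the pre-40S particle for it to mature, read 9.69, 9.61 and 9.62 on the arrays labelled ARF-1, 9.51, 9.69 and 9.41 on those labelled ARF-2, 9.87, 9.93 and 9.76 on those labelled ARF-4, and 10.20, 10.18 and 10.20 on the scramble arrays. It fell in all 3 sets (-0.55 ± 0.09 for ARF-1, -0.65 ± 0.09 for ARF-2 and -0.34 ± 0.09 for ARF-4), but the ARF-4 call was lost whenever 1 ARF-4, scramble or ARF-1 array, or ARF-2 replicate 1, was left out. TSR1, a GTPase-like 40S factor, fell by 0.61 (ARF-1) and 0.59 (ARF-2) on the log2 scale. NOB1, the endonuclease that makes the last cut of the small subunit RNA, was not called from scramble in any set.

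The PeBoW complex (PES1, BOP1, WDR12) is needed to process the large subunit RNA. BOP1 read 10.41, 10.46 and 10.39 on the arrays labelled ARF-1, 10.42, 10.27 and 10.30 on those labelled ARF-2, 10.98, 10.94 and 10.87 on those labelled ARF-4, and 10.87, 10.87 and 10.89 on the scramble arrays. PES1 read 7.05, 6.62 and 7.07 on the arrays labelled ARF-1, 6.76, 6.93 and 6.70 on those labelled ARF-2, 7.53, 7.52 and 7.51 on those labelled ARF-4, and 7.29, 7.22 and 7.26 on the scramble arrays. For BOP1 the differences were -0.46 ± 0.08 for ARF-1, -0.55 ± 0.08 for ARF-2 and 0.05 ± 0.08 for ARF-4. PES1 was called in ARF-2 only (-0.34 ± 0.12 for ARF-1, -0.46 ± 0.12 for ARF-2 and 0.26 ± 0.12 for ARF-4), while all 3 of its ARF-4 arrays lay above scramble without a call. The PES1 call in ARF-2 was lost without ARF-2 replicate 3 (-0.41), and a call in ARF-1 was gained without ARF-1 replicate 1 (-0.41) or 3 (-0.42). WDR12 read 8.83, 8.99 and 8.90 on the arrays labelled ARF-1, 9.03, 8.91 and 8.70 on those labelled ARF-2, 9.23, 9.35 and 8.97 on those labelled ARF-4, and 9.05, 9.19 and 8.96 on the scramble arrays. It overlapped scramble in every set and was not called (-0.16 ± 0.12 for ARF-1, -0.19 ± 0.12 for ARF-2 and 0.12 ± 0.12 for ARF-4).

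The large subunit factors held the members that fell furthest. Of 18, 16 were tested and 12 were called lower in ARF-1 (15.3% of all genes) and 12 in ARF-2 (14.1%). RRS1, which brings the 5S particle into the pre-60S subunit together with RPF2, read 7.42, 7.39 and 7.36 on the arrays labelled ARF-1, 7.18, 7.21 and 7.23 on those labelled ARF-2, 8.71, 8.86 and 9.002 on those labelled ARF-4, and 9.02, 8.90 and 9.09 on the scramble arrays. Its ARF-1 and ARF-2 arrays lay below every ARF-4 and scramble array, and the differences were -1.62 ± 0.09 for ARF-1, -1.80 ± 0.09 for ARF-2 and -0.15 ± 0.09 for ARF-4. GRWD1, a histone-binding protein that chaperones a large subunit protein, read 7.70, 7.78 and 7.59 on the arrays labelled ARF-1, 7.96, 7.84 and 7.68 on those labelled ARF-2, 8.98, 8.95 and 8.82 on those labelled ARF-4, and 9.34, 9.28 and 9.28 on the scramble arrays. Its ARF-1 and ARF-2 arrays lay lowest, its ARF-4 arrays next, and no array of a set reached scramble (-1.61 ± 0.10 for ARF-1, -1.47 ± 0.10 for ARF-2 and -0.38 ± 0.10 for ARF-4). The ARF-4 call of GRWD1 was lost whenever 1 ARF-4 or scramble array was left out, at -0.34 to -0.41. NOP2, a methyltransferase of the large subunit RNA, read 9.97, 10.14 and 9.98 on the arrays labelled ARF-1, 10.04, 9.97 and 10.01 on those labelled ARF-2, 10.74, 10.97 and 10.74 on those labelled ARF-4, and 10.80, 10.85 and 10.72 on the scramble arrays. Its 3 kept probes were all called lower in ARF-1 and ARF-2, the one used at -0.76 ± 0.10 for ARF-1, -0.79 ± 0.10 for ARF-2 and 0.03 ± 0.10 for ARF-4. NOP16, NIP7, NOC2L, RRP1B, RRP15, DDX56, BRIX1, MRTO4 and PPAN were the others called lower in both, between -0.39 and -0.88 in ARF-1. With median scaling NIP7, DDX56 and BRIX1 lost their ARF-1 calls and BRIX1 its ARF-2 call. NIP7 also lost its ARF-1 call without ARF-1 replicate 1 or 2 or scramble replicate 1 or 3, and BRIX1 its ARF-2 call without ARF-2 replicate 1 or 3 or scramble replicate 1 or 2. NOC3L, WDR74, RPF1 and RPF2 were called in neither; RPF2, the partner of RRS1, differed by -0.10 ± 0.09 in ARF-1.

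The abundant nucleolar proteins gave 3 tested members. DDX21, an RNA helicase linked to RNA polymerase I and II transcription, read 10.42, 10.50 and 10.45 on the arrays labelled ARF-1, 10.44, 10.26 and 10.40 on those labelled ARF-2, 11.07, 11.07 and 10.77 on those labelled ARF-4, and 11.65, 11.61 and 11.56 on the scramble arrays. It was called lower in all 3 sets (-1.15 ± 0.10 for ARF-1, -1.24 ± 0.10 for ARF-2 and -0.63 ± 0.10 for ARF-4), and its ARF-4 arrays lay between the other sets and scramble without overlap. NCL, nucleolin, read 11.69, 11.64 and 11.70 on the arrays labelled ARF-1, 11.71, 11.68 and 11.85 on those labelled ARF-2, 12.05, 12.13 and 12.08 on those labelled ARF-4, and 12.26, 12.27 and 12.21 on the scramble arrays. Its differences were -0.57 ± 0.08 for ARF-1, -0.50 ± 0.08 for ARF-2 and -0.16 ± 0.08 for ARF-4, and both kept probes were called lower in ARF-1 and ARF-2. GNL3L, a GTPase related to nucleostemin, read 7.94, 7.79 and 7.80 on the arrays labelled ARF-1, 7.74, 7.63 and 7.58 on those labelled ARF-2, 8.13, 8.27 and 8.03 on those labelled ARF-4, and 7.89, 7.73 and 7.53 on the scramble arrays. On the probes used, GNL3L was the only member called higher than scramble in any set, with 0.43 ± 0.11 in ARF-4. That call was lost without ARF-4 replicate 1 or 2 or scramble replicate 2 or 3, at 0.33 to 0.44, and the second GNL3L probe was called lower in ARF-1 and ARF-2 and not called in ARF-4.

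**Figure D3:**
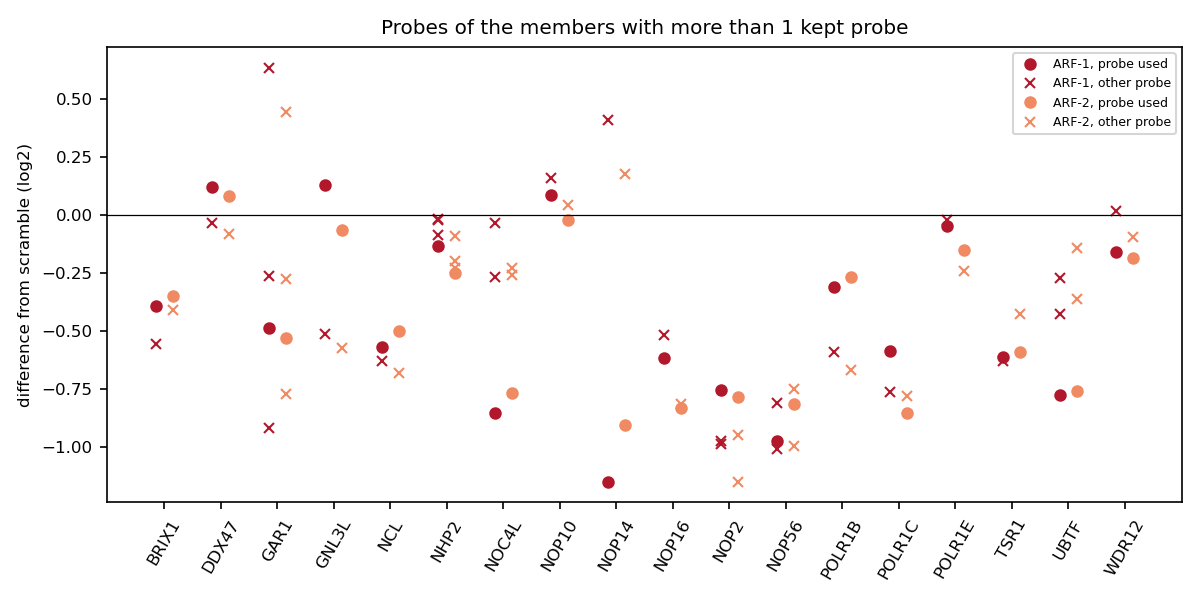
Difference from scramble (log2, vertical axis) of every kept probe of the 18 members with more than 1, for the arrays labelled ARF-1 and ARF-2; circles are the probe used and crosses the others. GAR1, NOP14 and DDX47 have probes on both sides of 0 in both sets, GNL3L and WDR12 in ARF-1 and NOP10 in ARF-2, and the NOP2, NOP56, NCL and POLR1C probes all lie below it.

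Set directly against ARF-1 and ARF-2 together, the ARF-4 arrays were higher for 36 of 54 members (14.4% of all genes were called higher) and lower for 0 (14.7%); at an unadjusted p below 0.05 limma gave 1 lower (20.5%). The median was 0.47, beside 0.005 over all genes. All 31 members lower in both ARF-1 and ARF-2 were among the 36, and for 35 members all 3 ARF-4 arrays lay above all 6 ARF-1 and ARF-2 arrays (14.9% of all genes). The ARF-1 and ARF-2 values behind those 31 calls also enter this comparison, so that overlap is no separate result. RRS1 was 1.56 ± 0.08 higher, GRWD1 1.16 ± 0.09 and RRP12 1.05 ± 0.15. With the 9 arrays taken as 1 group, 8 members were called lower (5.99% of all genes) and 0 higher (6.5%), with 0 higher (14.8%) also at an unadjusted p below 0.05 in limma. That fit ignores the differences between the sets, and 1 member was called once the 3 sets entered as a random block. The 8 were UTP20, NOP14, LTV1, TSR1, GRWD1, RRP15, NCL and DDX21, and the median was -0.344. RRS1, at -1.19 ± 0.39, was not called there. Without ARF-4 replicate 1, 2 or 3 the count was 18, 18 and 14, and without scramble replicate 1, 2 or 3 it was 2, 3 and 2. The 5 calls in ARF-4 against scramble became 2, 1 and 3 without ARF-4 replicate 1, 2 or 3, and 2, 2 and 1 without scramble replicate 1, 2 or 3. The share of all genes called was not counted in these refits, so nothing is read about the members from the changed counts.

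Of 104 other ribosome biogenesis genes, 101 were tested. In ARF-1, 41 were called lower (40.6%, beside 15.3% of all genes) and 6 higher (5.9%, beside 15.2%). In ARF-2, 41 were lower (40.6%, beside 14.1%) and 2 higher (2%, beside 14.7%). In ARF-4, 3 were lower (3%, beside 4.8%) and 5 higher (5%, beside 4.99%), shares close to or under those of all genes. Their medians were -0.25, -0.27 and 0.053. URB2, a nucleolar protein of large subunit assembly, read 6.84, 6.80 and 7.04 on the arrays labelled ARF-1, 6.97, 6.98 and 6.99 on those labelled ARF-2, 7.79, 7.90 and 7.93 on those labelled ARF-4, and 8.26, 8.28 and 8.41 on the scramble arrays. It differed by -1.42 ± 0.09 for ARF-1, -1.34 ± 0.09 for ARF-2 and -0.44 ± 0.09 for ARF-4, and its ARF-4 call was lost without scramble replicate 3. POLR1G, a subunit of RNA polymerase I, fell by 1.15 (ARF-1) and 1.25 (ARF-2), DDX54 by 1.13 and 0.78, and NOL6 by 1.07 and 0.93 on the log2 scale. Without background correction the falls of DDX54 and POLR1G were -0.57 and -0.43 in ARF-1. The 4 highest in ARF-1 were FCF1 (0.76 ± 0.14), TAF1B, a promoter factor of RNA polymerase I (0.53 ± 0.11), RSL24D1 (0.41 ± 0.08) and RRP7A (0.35 ± 0.10). FCF1 was 0.30 without background correction and 0.40 as the mean of its probes, and the RRP7A call was lost without ARF-1 replicate 1 or 2 or scramble replicate 1 or 3.

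**Figure D4:**
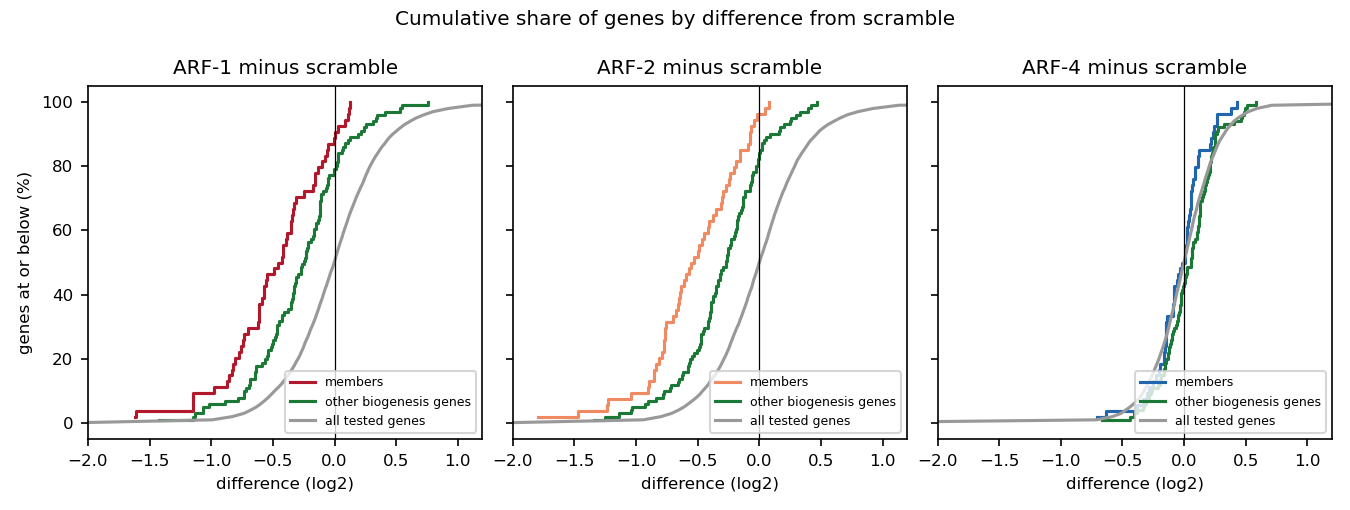
Cumulative share of genes (percent, vertical axis) by difference from scramble (log2, horizontal axis) for the 54 tested members, 101 other ribosome biogenesis genes and 12048 tested genes on the arrays labelled ARF-1, ARF-2 and ARF-4. In ARF-1 and ARF-2 the members' curve lies left of the others, with medians of -0.445 and -0.54, and in ARF-4 the 3 curves run close together, with a members' median of -0.004.

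The MYC network was measured beside them. MYC read 10.85, 10.74 and 10.80 on the arrays labelled ARF-1, 10.69, 10.66 and 10.73 on those labelled ARF-2, 10.65, 10.59 and 10.55 on those labelled ARF-4, and 10.53, 10.42 and 10.34 on the scramble arrays. It was higher in ARF-1, by 0.36 ± 0.09 (limma, adjusted p = 0.0077), and in ARF-2, by 0.26 ± 0.09 (limma, adjusted p = 0.0421). The ARF-2 call was lost when 1 array was left out, whichever ARF-1 or ARF-2 array, ARF-4 replicate 1 or 2, or scramble replicate 2 or 3, and median scaling gave 0.09. In ARF-4 MYC differed by 0.17 ± 0.09 (limma, adjusted p = 0.259). MXI1, a MAX partner that represses MYC targets, read 5.74, 5.21 and 5.68 on the arrays labelled ARF-1, 5.12, 5.27 and 5.11 on those labelled ARF-2, 4.65, 4.57 and 4.63 on those labelled ARF-4, and 4.51, 4.65 and 4.72 on the scramble arrays. It was not above background on any ARF-4 or scramble array, and was at least 1.54-fold higher in ARF-1 (limma, adjusted p = 0.000337) and at least 1.19-fold higher in ARF-2 (limma, adjusted p = 0.0101) than in scramble. MXD3 was higher in ARF-1 (0.31 ± 0.10) and also in ARF-2 (0.45 ± 0.10). Its ARF-1 call was lost without ARF-1 replicate 2 or 3 or any scramble array. MXD4 was higher in ARF-1 (0.34 ± 0.10), a call lost without ARF-1 replicate 1 or 2 or scramble replicate 1 or 3. MGA was lower in both, by -0.54 and -0.53, calls lost without ARF-1 replicate 2 (ARF-1), ARF-2 replicate 1 (ARF-2) or scramble replicate 2 or 3 (both). In ARF-4 MGA differed by -0.47, not called, but called at -0.63 without scramble replicate 1 (limma, adjusted p = 0.0149). MLX was lower in ARF-2 (-0.50, but -0.17 as the mean of its probes). ZBTB17 was lower in ARF-1 (-0.38) and ARF-4 (-0.47), each lost without scramble replicate 1 or 3 or a pair of its own arrays taken singly (ARF-1 replicate 1 or 3, ARF-4 replicate 2 or 3). MAX (0.61 in ARF-1), MXD1, MNT and MYCL were not called from scramble in any set, but MAX was called higher in ARF-1 without ARF-2 replicate 2 or 3. Of 11 tested genes, 4 were called higher (36.4%, beside 15.2% of all genes) and 2 lower (18.2%, beside 15.3%) in ARF-1. In ARF-2 it was 3 higher (27.3%, beside 14.7%) and 2 lower (18.2%, beside 14.1%), and in ARF-4 it was 0 higher (4.99% of all genes) and 1 lower (4.8%).

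Free RPL5 and RPL11 are known to bind the ubiquitin ligase MDM2 when ribosome assembly fails, a step of the nucleolar stress response. RPL5 differed by -0.03 ± 0.09 in ARF-1 and RPL11 by -0.07 ± 0.14, and neither was called in any set. CDKN1A, an inhibitor of cyclin-dependent kinases, read 10.69, 10.53 and 10.48 on the arrays labelled ARF-1, 10.87, 10.79 and 10.96 on those labelled ARF-2, 10.30, 10.30 and 10.03 on those labelled ARF-4, and 10.66, 10.67 and 10.86 on the scramble arrays. It was lower in ARF-4 only (-0.52 ± 0.11, limma, adjusted p = 0.0118), a call lost without scramble replicate 3. MDM4, a relative and partner of MDM2, was higher in ARF-1 (0.97 ± 0.18) and ARF-2 (0.63 ± 0.18), at 0.33 and 0.22 without background correction, and its ARF-2 call was lost without ARF-2 replicate 2 or 3 or scramble replicate 2 or 3. In ARF-4 MDM4 differed by 0.57 ± 0.18, which was not called, but was called without ARF-2 replicate 1 or 3. MDM2 and RB1 were not called.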

How the data were processed

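For 12 HumanHT-12 V4.0 arrays the authors deposited a bead summary intensity and a detection p-value per probe; the submitters' processing notes name BeadStudio 2.3.47. Their second table, of processed intensity, equals the quantile normalization of those signals (largest log2 difference 6.06e-07). Of 47311 probes with values, 22195 had a detection p-value below 0.05 on at least 3 arrays and were kept. Signals were corrected and normalized with neqc (offset 16) in limma 3.58.1 under R 4.3.3, and fitted with 4 group means (8 residual degrees of freedom), or 2 condition means for the 9 arrays against 3, and p-values were adjusted by Benjamini-Hochberg across every kept probe. Each gene was read on its brightest kept probe. The number of arrays limits the precision. Where a whole set was not above background, the fold is a bound against the lowest detected signal of those arrays.

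The members and gene lists were chosen with earlier results of these data known. Values on every array are given for the 3 members of each of the 8 role classes with the smallest F-test p over the groups, and for members called opposite to most. The 4 highest and lowest called other biogenesis genes in ARF-1, and all tested genes of the MYC and nucleolar stress lists that may be reported here, are also named. The procedure was tested on simulated data. Replicate numbers did not pair arrays (18 correlations from -0.022 to 0.037). Alternatives covered background correction, scaling, probe filter, variance prior, array weights, blocks, probe averaging and leaving out each array.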

Additional observations from a re-analysis of the deposited data

Results flagged for a closer look

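The ARF-4 arrays differed from the ARF-1 and ARF-2 arrays jointly for 36 members, all higher in ARF-4. Of all tested genes, 14.4% were called higher and 14.7% lower in this comparison. The members were listed for lower values after some of the transfections, and this comparison uses the same arrays, so it is no test of the list. Among the members described with a value for every array, the log2 difference of ARF-4 minus ARF-1 and ARF-2 was 0.66 for POLR1C, 0.67 for MYBBP1A, 0.61 for UBTF, 0.84 for NOP56, 0.29 for NOP58, 0.63 for DKC1, 0.66 for NOLC1 and 0.43 for GAR1. It was 0.73 for NOP14, 0.85 for RRP9, 0.61 for NOC4L, 0.65 for BYSL, 1.05 for RRP12, 0.26 for LTV1, 0.56 for BOP1 and 0.67 for PES1. For the large subunit and abundant nucleolar proteins it was 1.56 for RRS1, 1.16 for GRWD1, 0.8 for NOP2, 0.56 for DDX21, 0.37 for NCL and 0.4 for GNL3L. The difference was lost without ARF-4 replicate 2 for NOC4L (0.54) and GNL3L (0.34). NOP58 lost it without ARF-1 replicate 2, ARF-2 replicate 2 or 3, or any ARF-4 array, and LTV1 without ARF-1 replicate 2 or 3, ARF-2 replicate 1 or 3, or ARF-4 replicate 1 or 2.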

How the results depend on the processing

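Among the genes chosen by the naming rule, no called value changed sign under any alternative that was run. Of the 31 members called in ARF-1, 26 were called under every alternative, as were 31 of 35 in ARF-2, 1 of 5 in ARF-4 and 24 of 36 for ARF-4 against ARF-1 and ARF-2. The members' median in ARF-1 was -0.362 with no background correction, -0.556 with median scaling, -0.365 in the authors' value table and -0.487 with the strict filter (detection p below 0.01 on all arrays). In ARF-2 it was -0.385 with no background correction, -0.482 with an offset of 50, -0.706 with median scaling, -0.386 in the authors' table and -0.465 as the mean of all probes. With median scaling it was -0.116 in ARF-4 and -0.112 for ARF-2 minus ARF-1; that scaling moved the median of all probes by less than 0.1 in every comparison. For ARF-4 against ARF-1 and ARF-2 it was 0.335 with no background correction, 0.423 with an offset of 50, 0.507 with median scaling, 0.337 in the authors' table, 0.413 with no filter and 0.548 with the strict filter. For the 9 arrays against 3 it was -0.263 with no background correction, -0.475 with median scaling, -0.263 in the authors' table and -0.424 with array weights. The 5 calls in ARF-4 became 2 with median scaling and 2 with only the arrays compared. The 8 calls over the 9 arrays became 17 with median scaling, 4 with no filter, 13 with a trended prior, 34 with array weights and 1 with the sets as a random block. The causes were not tested. The share of all genes called was not counted under any alternative. Nothing is therefore read about the members from the changed counts in this section. Leaving out 1 array at a time gave 28 to 32 calls and medians of -0.501 to -0.444 for ARF-1 versus scramble, 32 to 36 calls and medians of -0.559 to -0.511 for ARF-2 versus scramble, 1 to 5 calls and medians of -0.051 to 0.006 for ARF-4 versus scramble. It gave 0 calls throughout and medians of -0.064 to -0.035 for ARF-2 versus ARF-1, 30 to 37 calls and medians of 0.435 to 0.488 for ARF-4 versus ARF-1 and ARF-2, and 2 to 18 calls and medians of -0.401 to -0.311 for the 9 arrays versus scramble. Arrays that share a number did not vary together, and a replicate block gave 31, 34, 4, 0, 37 and 6 calls in the 6 comparisons, in the order ARF-1, ARF-2, ARF-4, ARF-2 against ARF-1, ARF-4 against both, and 9 arrays against 3. With it LTV1 in ARF-4, UTP15 and MYC in ARF-2, MXD3 in ARF-1 and UTP15 for ARF-4 against ARF-1 and ARF-2 lost their calls. Of 2905 values of the genes chosen by the naming rule recomputed with no array left out, 57 lost and 42 gained a call.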
